A study of Zea mays with 2 samples.

Results

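The regions described here are 21 windows of 1 Mb on the maize chromosomes in which endosperm had many methylation peaks relative to embryo. Each deposited peak on chromosomes 1 to 10 was placed by its start in windows counted from the first base of the chromosome. A window was kept when both lists together held at least 100 peaks in it and embryo had at most 2.0 times as many peaks as endosperm. Chromosome 6 from 10 to 13 Mb was left out. Of 2064 windows with a peak, 2056 outside that interval had at least 100 peaks, and 21 of these (1.02%) were endosperm-rich. The data come from 1 methylated DNA immunoprecipitation (MeDIP-seq) library of embryo and 1 of endosperm, both of the inbred line B73 and collected 14 days after selfing. Sheared DNA was pulled down in both with an antibody to 5-methylcytidine. No replicates exist, so every comparison is between these 2 libraries, no test between tissues was possible, and intervals cover counting error only. The lists give position and score of each peak but not its reads, and the depth behind a peak was not analysed here. The windows were chosen by their peak numbers, and therefore all values from the same lists are given as a description.

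The embryo and the endosperm of a maize kernel both arise at double fertilization, and the endosperm is the nutritive tissue that stores starch and protein. In plants, cytosines are methylated in CG, CHG and CHH contexts, and transposable elements and other repeats, which make up most of the maize genome, are the main carriers. In Arabidopsis, the DNA glycosylase DEMETER removes methylation from many loci in the central cell that gives rise to the endosperm, and endosperm DNA there carries less methylation than embryo DNA. A MeDIP-seq peak is a stretch where immunoprecipitated reads pile up. Peak number in a window therefore says how many such stretches were called, not how strongly single cytosines were methylated.

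The windows are named here by chromosome and by order along it. All positions are 1-based, and the genome build of the deposited lists is not given in the sources used here. On chromosome 1 they are 1a (134000001 to 135000000), 1b (181000001 to 182000000) and 1c (267000001 to 268000000). Chromosome 2 has 2a (8000001 to 9000000) and 2b (93000001 to 94000000), and chromosome 3 has 3a (1 to 1000000) and 3b (85000001 to 86000000). Chromosome 4 holds 4a (105000001 to 106000000), 4b (167000001 to 168000000) and 4c (179000001 to 180000000). Chromosome 5 holds 5a (2000001 to 3000000), 5b (12000001 to 13000000) and 5c (209000001 to 210000000). Single windows lie on chromosome 6 (6a, 19000001 to 20000000), chromosome 7 (7a, 22000001 to 23000000) and chromosome 8 (8a, 163000001 to 164000000). Chromosome 9 has 9a (1 to 1000000) and 9b (72000001 to 73000000). Chromosome 10 has 10a (1 to 1000000), 10b (48000001 to 49000000) and 10c (51000001 to 52000000). All 10 chromosomes thus carry at least 1 such window. None of them are neighbours, and the 39 windows directly beside them had ratios between 2.14 and 4.59 with a median of 3.15. No gene or repeat annotation of the build of these lists was used, so the windows are described by position and peaks alone.

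Together the 21 windows held 4271 embryo and 2384 endosperm peaks, a ratio of 1.79 (95% Wilson interval 1.70 to 1.88). The 2035 other windows with at least 100 peaks held 346321 embryo and 111434 endosperm peaks, a ratio of 3.11 (3.09 to 3.13). Endosperm peak numbers differed more from those of other windows than embryo peak numbers did, and choosing windows by a low ratio favours this. An endosperm-rich window had on average 203.4 embryo and 113.5 endosperm peaks, against 170.2 embryo and 54.8 endosperm peaks in other windows. These are 1.20 times as many peaks for embryo and 2.07 times as many for endosperm. All 21 windows had more endosperm peaks than the median other window, which had 54, and 16 had more embryo peaks than its 168. Ranked over all 2059 windows with at least 100 peaks, 14 of the 21 were among the 20 with most endosperm peaks and 4 were among the 20 with most embryo peaks. High endosperm numbers follow in part from the choice of windows and are no separate result.

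**Figure D1:**
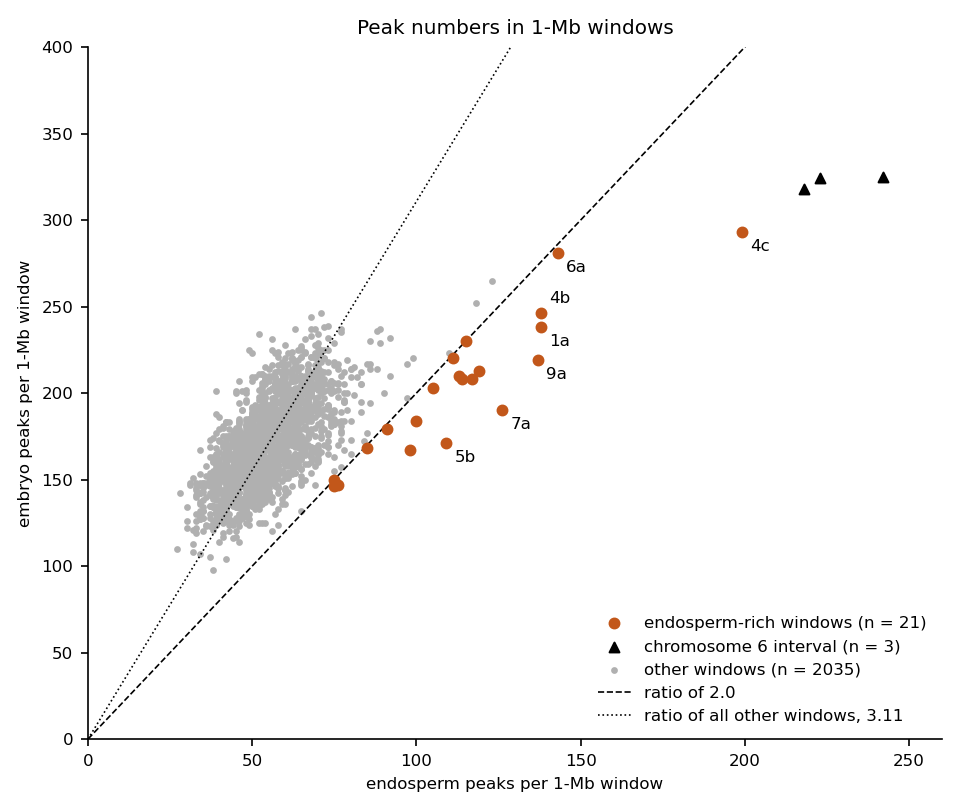
Each point is a window of 1 Mb with at least 100 peaks, placed by its number of endosperm peaks (x axis) and embryo peaks (y axis). Circles are the 21 endosperm-rich windows, triangles the 3 windows of the chromosome 6 interval and small points the 2035 other windows; the dashed line marks a ratio of 2.0 and the dotted line the 3.11 of other windows, and window 4c with 293 embryo and 199 endosperm peaks lies nearest to the chromosome 6 interval.

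Window 4c had the lowest ratio, with 293 embryo and 199 endosperm peaks (1.47, interval 1.23 to 1.76). It also had the most peaks of both tissues among the 21. Window 7a followed with 190 embryo and 126 endosperm peaks (1.51), and 5b with 171 and 109 (1.57). Window 9a had 219 embryo and 137 endosperm peaks (1.6), 9b had 167 and 98 (1.70), and 1a had 238 and 138 (1.72). The intervals of all 6 overlap, so their order is within counting error. Windows 6a (281 embryo and 143 endosperm peaks, ratio 1.97) and 4b (246 and 138, ratio 1.78) were the others with most endosperm peaks. In 8a (147 embryo and 76 endosperm peaks), 5a (146 and 75) and 5c (150 and 75), endosperm peaks were fewest of the 21, and embryo peaks were below the median other window. The remaining 10 windows had between 168 and 230 embryo peaks and between 85 and 119 endosperm peaks. Just inside the limit were 2b with 220 embryo and 111 endosperm peaks (1.98), and 4a (230 and 115) and 5c, both at 2.00. Just outside it, at 2.03 each, were windows on chromosome 5 from 47000001 (223 embryo and 110 endosperm peaks), on chromosome 1 from 234000001 (132 and 65) and on chromosome 8 from 48000001 (197 and 97).

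The number of such windows that counting error alone gives was computed from the binomial distribution. Each of the 2056 windows kept its own number of peaks, and each peak was taken as endosperm with the common share of 24.5%. This gave 4.0 windows with a ratio of at most 2.0, where 21 were observed. At a limit of 1.8 it gave 0.307 windows, where 9 were observed, and at 1.6 it gave 0.0114, where 4 were observed. At less extreme limits the numbers came closer: 24.6 were given and 37 observed at 2.2, and 171 were given and 146 observed at 2.5. On the opposite side, counting error gave 12.5 windows with a ratio of at least 4.74, which lies as far above the common ratio as 2.0 lies below it, and 5 were observed. The binomial treats peaks as independent, which neighbouring peaks are not, so these are expected numbers and no test. At 2.5 and on the opposite side fewer windows were observed than given, so the binomial may spread wider than these lists do. How many of the 21 windows are there by counting error is therefore not settled, nor which.

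In 11 of the 21 windows, at least 50% of the endosperm peaks lay in a few bins of 100 kb. When each window was cut into 10 bins of 100 kb, 33 of the 210 bins (15.7%) held at least 20 endosperm peaks, a minimum chosen after the values were seen. In other windows 29 of 20338 bins (0.143%) did, and a fixed minimum is met more easily in windows chosen for many endosperm peaks. Such dense bins lay in 16 of the 21 windows and in 22 of the 2035 other windows. In how many of those 22 they held at least 50% of the endosperm peaks is not given here. The 33 dense bins of the 21 windows formed 19 stretches of 100 to 400 kb. They held 1131 embryo and 1035 endosperm peaks (43.4% of the endosperm peaks), a ratio of 1.09, and in 11 of them endosperm had at least as many peaks as embryo. The 29 dense bins of other windows also had a low ratio, 1.26, with 899 embryo and 715 endosperm peaks. In 4 of those 29, endosperm had at least as many peaks as embryo. The other 177 bins of the 21 windows held 3140 embryo and 1349 endosperm peaks, a ratio of 2.33, and thus still fewer embryo peaks per endosperm peak than the 3.11 of other windows. Since dense bins were picked for their endosperm peaks, a low ratio is favoured in them and the remainder must have a higher ratio by construction.

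**Figure D2:**
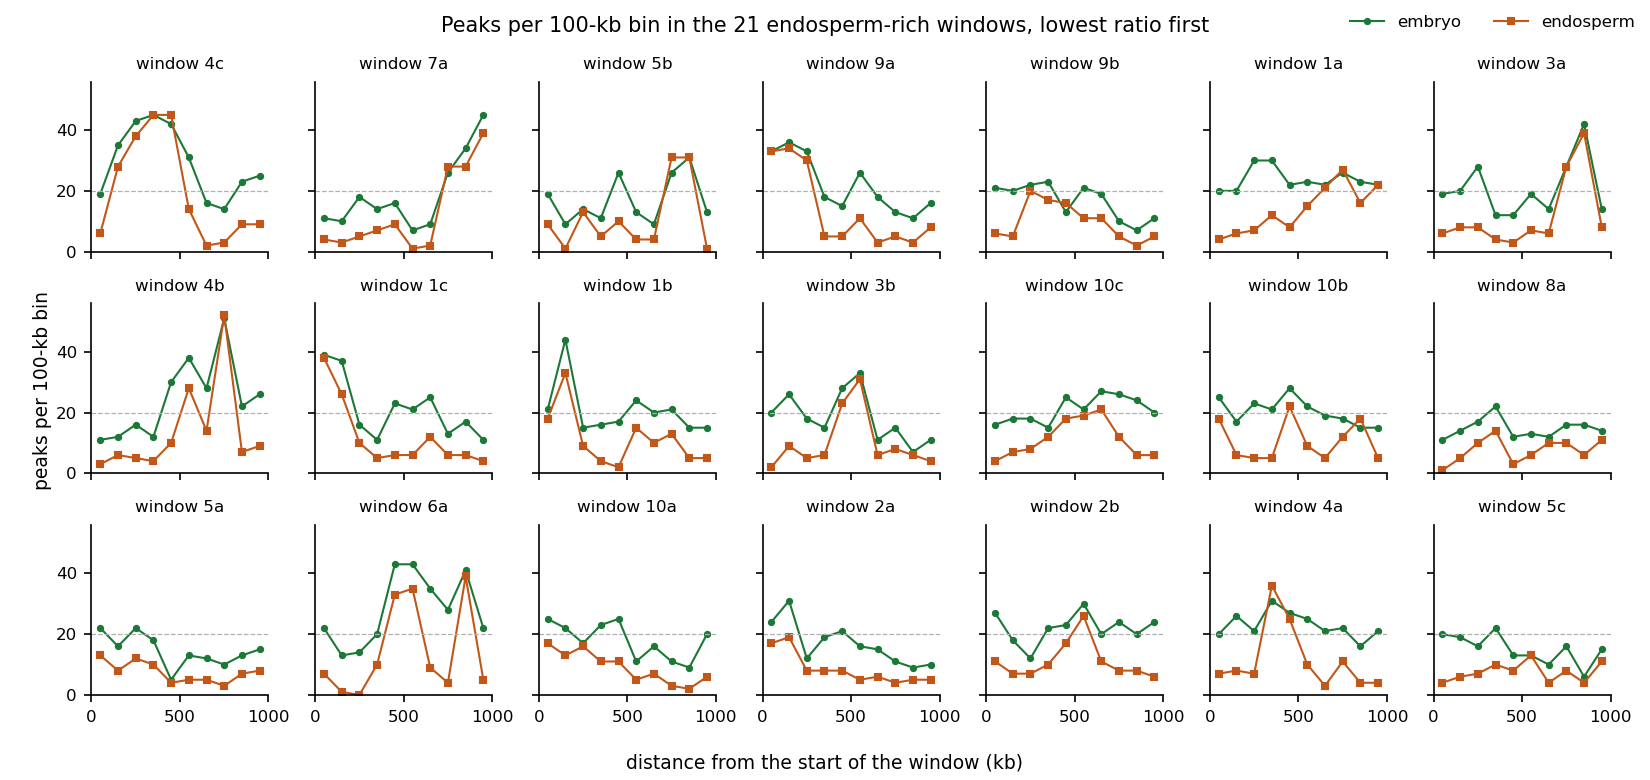
Number of peaks per 100-kb bin (y axis) against the distance from the start of the window in kb (x axis) in each of the 21 endosperm-rich windows, with embryo as circles and endosperm as squares; the dashed line marks 20 peaks. In windows such as 4c, 7a and 9a the 2 lines run close together over 300 to 400 kb and are apart elsewhere, whereas in 2a, 5a, 5c, 8a and 10a no bin reaches 20 endosperm peaks.

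Window 4c showed the longest stretch, 400 kb from 179100001 to 179500000, with 165 embryo and 156 endosperm peaks. Its 10 bins held in order 19, 35, 43, 45, 42, 31, 16, 14, 23 and 25 embryo peaks, and 6, 28, 38, 45, 45, 14, 2, 3, 9 and 9 endosperm peaks. Endosperm thus reached the embryo number in the fourth bin and passed it in the fifth, whereas the other 6 bins of the window had 128 embryo and 43 endosperm peaks, a ratio of 2.98. In 4b the densest bin of the 21 windows, from 167700001 to 167800000, held 51 embryo and 52 endosperm peaks, and the bin next but one before it held 38 and 28. In 5b a stretch of 200 kb from 12700001 held 57 embryo and 62 endosperm peaks, and the bins on its flanks held 9 and 13 embryo peaks but only 4 and 1 endosperm peaks. In 6a there were 2 stretches, from 19400001 to 19600000 with 86 embryo and 68 endosperm peaks and from 19800001 to 19900000 with 41 and 39. The other 7 bins of 6a held 154 embryo and 36 endosperm peaks. Their ratio of 4.28 is the highest outside the dense bins of any of the 16 windows.

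Window 9a begins at the first base of its chromosome, and its first 300 kb held 102 embryo and 97 endosperm peaks, against 117 and 40 in the other 700 kb. The 3 bins of the stretch held 33, 36 and 33 embryo peaks and 33, 34 and 30 endosperm peaks, and in the fourth bin there were 18 and 5. Windows 3a and 10a also lie at the start of a chromosome. In 3a the stretch was not at the very end but from 700001 to 900000, with 70 embryo and 67 endosperm peaks. In 10a no bin reached 20 endosperm peaks, and its first bin was the fullest with 25 embryo and 17 endosperm peaks. In the first Mb of the other 7 chromosomes the ratio ran from 2.55 to 4.0.

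In 7a the last 3 bins, from 22700001 to 23000000, held 105 embryo and 95 endosperm peaks, against 85 and 31 in the 7 bins before. The first bin beyond the window held 36 embryo and 28 endosperm peaks, so the stretch went on past its edge, and the next window as a whole had a ratio of 2.24. The stretch of 1c, from 267000001 to 267200000 with 76 embryo and 64 endosperm peaks, began at the edge of the window, and the bin before it held 14 and 3. In 1a the endosperm number climbed along the window while the embryo number did not. Its bins held 20, 20, 30, 30, 22, 23, 22, 26, 23 and 22 embryo peaks, and 4, 6, 7, 12, 8, 15, 21, 27, 16 and 22 endosperm peaks. The bin after it held 28 embryo and 6 endosperm peaks, so at the border the endosperm number was far lower and the embryo number slightly higher. In 9b the profile was flatter, with a single bin, from 72200001, that reached 22 embryo and 20 endosperm peaks and 2 following bins with 23 and 13 embryo and 17 and 16 endosperm peaks.

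In 1b, 2b, 9b, 10b and 10c the single dense bin held only 18.6% to 28.9% of the endosperm peaks. Windows 2a, 5a, 5c, 8a and 10a had no dense bin. Together they held 790 embryo and 402 endosperm peaks, a ratio of 1.97 (1.74 to 2.22), and all 5 had ratios between 1.93 and 2.00. Over the 21 windows the fullest bin held between 17.3% and 37.7% of the endosperm peaks of its window, with a median of 23.4%, and a median of 15.1% of the embryo peaks. In other windows the medians were 17.9% for endosperm and 12.1% for embryo. Without its fullest bin, 13 of the 21 windows had a ratio above 2.0. Taking out the bin with most endosperm peaks raises the ratio by construction, and other windows were not treated this way.

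The additional endosperm peaks of the 21 windows were for the most part at places with an embryo peak. An endosperm-rich window had on average 84.4 embryo peaks that shared at least 1 bp with an endosperm peak and 119.0 embryo peaks alone. In other windows there were 39.8 such shared embryo peaks and 130.4 embryo peaks alone. Shared embryo peaks were thus 2.12 times as many, and embryo peaks alone 0.912 times as many. Endosperm peaks, for which the windows were chosen, were 2.07 times as many, so more shared embryo peaks follow in part from the choice. Endosperm peaks alone were 24.3 per endosperm-rich window and 14.2 per other window. In 13 of the 21 windows the number of embryo peaks alone was below the mean of other windows. The lowest was 91, in 5b and 8a, and the highest 167, in 6a.

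As a share, 41.5% of the embryo peaks (1773 of 4271, 40.0 to 43.0) overlapped an endosperm peak in the 21 windows, against 23.4% in other windows. It was above 23.4% in each of the 21, from 33.9% in 4a to 52.9% in 4c. Choosing windows with many endosperm peaks per embryo peak raises this share by construction, so the rise is no separate result. For endosperm peaks the share was 78.6% (1874 of 2384, 76.9 to 80.2), against 74.1% (73.8 to 74.3). It ran from 70.6% in 5b to 86.2% in 1a and was above 74.1% in 19 of the 21. Only 5b and 1b, with 71.9%, were below. How many single other windows were above 74.1% is not given here. Peaks covered more of the 21 windows, 8.27% of the bases in embryo and 4.11% in endosperm, against 5.38% and 1.36% in other windows. Denser peaks meet each other more often, and the part of this in the shares was not tested. In the 19 dense stretches 71.5% of the embryo and 82.5% of the endosperm peaks overlapped a peak of the other tissue.

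**Figure D3:**
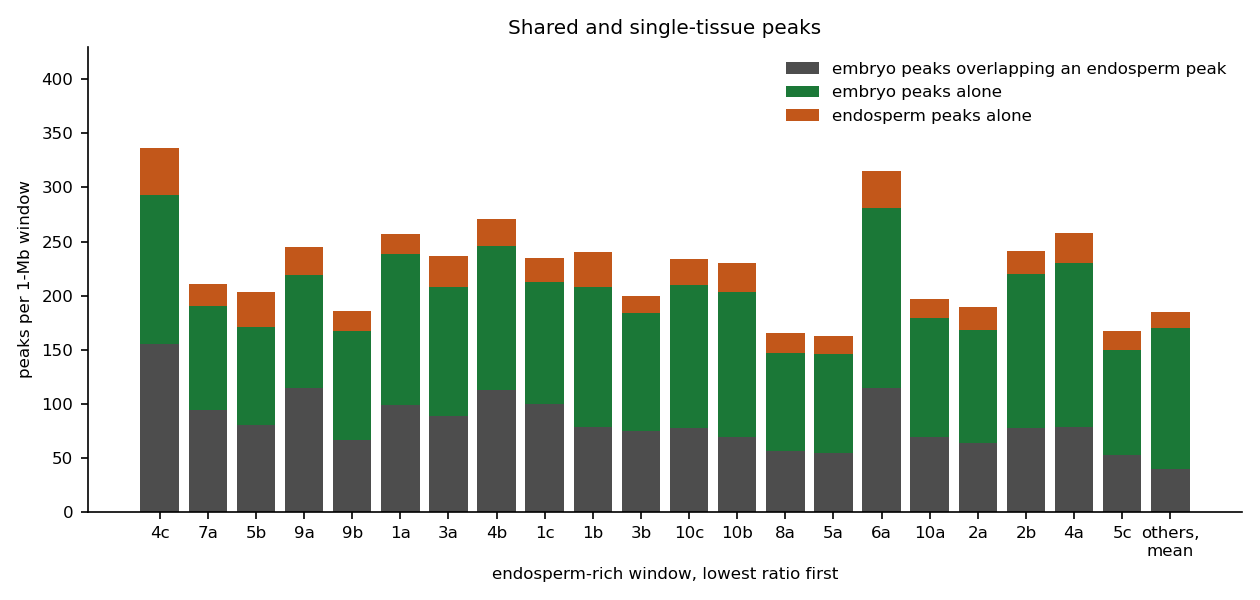
Peaks per 1-Mb window (y axis) in each of the 21 endosperm-rich windows, with the mean of the 2035 other windows as the last bar. Bars stack embryo peaks that overlap an endosperm peak (bottom), embryo peaks alone (middle) and endosperm peaks alone (top); the bottom part is 52 to 155 peaks in the 21 windows and 39.8 in the mean of other windows.

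The 510 endosperm peaks alone in the 21 windows lay at a median distance of 819 bp from the closest embryo peak, and 232 of them (45.5%) were more than 1000 bp away. In other windows the median was 1344 bp and the share 57.6%. They were weak within the endosperm list. The score of a peak, called diffScore, is the log10 of its p-value times minus 10, so a higher score means a clearer peak, and the lists begin at 50. Endosperm peaks alone had a median diffScore of 61.4 and the overlapping ones 86.3, against 59.4 and 71.5 in other windows. Among the 795 clearer endosperm peaks, scored 100 or more, 39 met no embryo peak and 95.1% overlapped one. Other windows were much the same, with 93.7% of 20101 such peaks overlapping. In all 21 windows the endosperm peak with the highest diffScore overlapped an embryo peak, and so did the highest embryo peak an endosperm peak. The same count for other windows is not given here. Of embryo peaks scored 100 or more, 61.0% overlapped an endosperm peak in the 21 windows and 38.5% in other windows, a rise that the choice of windows favours.

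The strongest endosperm peak of 4c lay from 179502703 to 179503178 (476 bp, diffScore 686), just past the end of the stretch, over an embryo peak from 179502724 to 179503141. In 6a it was inside the second stretch, from 19890529 to 19891035, and that of 4b lay from 167582270 to 167582406 inside the first of its 2 stretches. The strongest endosperm peak of 9a lay from 75547 to 76522 (976 bp, diffScore 1098) over an embryo peak with nearly the same borders, 75527 to 76532. That of 7a, from 22913153 to 22914336, also matched its embryo peak closely, 22913220 to 22914327. In 5b the endosperm peak from 12429661 to 12431030 spanned 2 embryo peaks, and it was outside the dense stretch. The longest of those in the 8 windows described above was in 9b, from 72226118 to 72228084 (1967 bp, diffScore 1137), inside an embryo peak of 3201 bp. In 1a the strongest one, from 134829000 to 134829819, lay between the 2 stretches of that window. The strongest of all 21 windows was in 10a, from 3363 to 4398 with a diffScore of 1330, close to the start of the chromosome.

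Over the 21 windows together peaks were longer than in others, but not in every window. Embryo peaks there had a median length of 292 bp and endosperm peaks one of 259 bp, against 272 bp and 211 bp in other windows. By window, the median ran from 241 to 385.5 bp in embryo and from 205 to 514 bp in endosperm. In 14 windows the embryo median was above 272 bp. In 19 windows the endosperm median was above 211 bp, the exceptions being 4c with 210 bp and 2a with 205 bp. Both limits are medians over the pooled peaks of other windows, and how many single other windows lie above them is not given here. In 6 windows the median endosperm peak was longer than the median embryo peak. These were 9a (328 bp in embryo and 488 bp in endosperm), 9b (378 and 498.5), 1a (378 and 514), and by at most 10 bp also 3b, 4a and 10b. Among pairs made of 1 embryo and 1 endosperm peak, the endosperm peak was the longer one in 450 of 1530 pairs (29.4%) in the 21 windows, against 14.1% in other windows. The share was highest in 4c, with 72 of 138 pairs, and lowest in 5c, with 2 of 47.

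**Figure D4:**
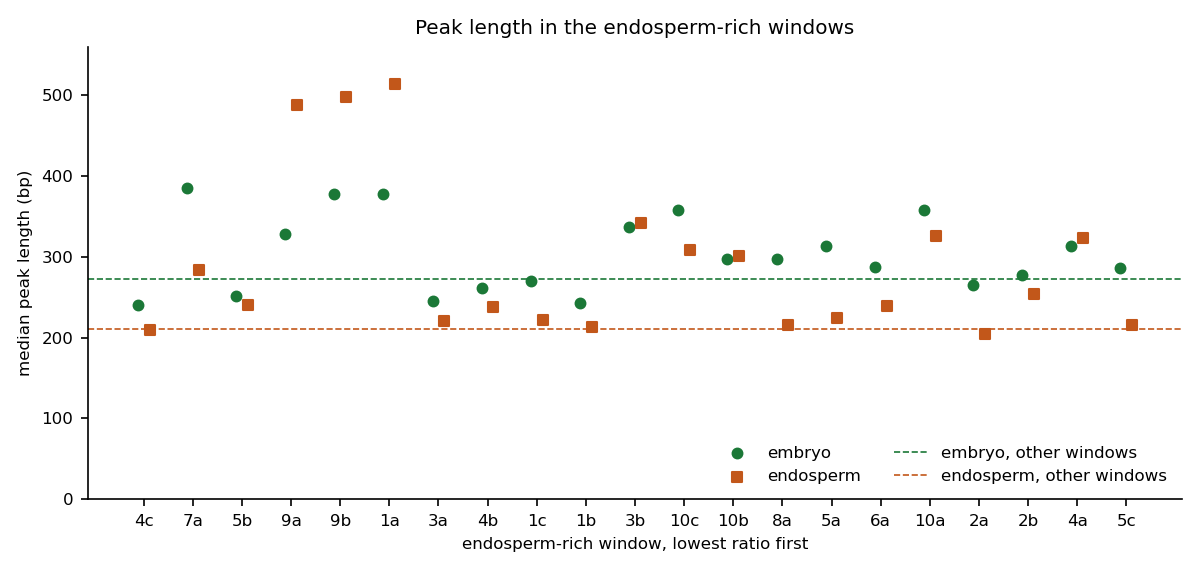
Median peak length in bp (y axis) in each of the 21 endosperm-rich windows, lowest ratio first (x axis), with embryo as circles and endosperm as squares; dashed lines are the medians over other windows, 272 bp in embryo and 211 bp in endosperm. The endosperm medians of 9a, 9b and 1a stand between 488 and 514 bp, and all others between 205 and 342.5 bp.

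Long peaks were gathered in some of the windows. Of 1765 embryo peaks of at least 1000 bp in all windows with at least 100 peaks, 221 (12.5%) were in the 21, which held 1.21% of all embryo peaks there. For endosperm these were 110 of 1048 long peaks (10.5%), with 2.08% of all endosperm peaks. Of the 221 long embryo peaks, 212 were in only 9 windows, which had 17 to 47 each: 1a (47), 9b (30), 10c (23), 7a (21), 3b and 9a (20 each) and 4a, 10a and 10b (17 each). Among the other 12 windows, 10 had no long embryo peak, 2b had 6 and 8a had 3. The longest embryo peak was 6766 bp in 9b and the longest endosperm peak 4336 bp in 10a. With the last peak taken as the chromosome end, the middles of 6 of these 9 windows lay at 32.3% to 46.3% of the chromosome, whereas of the other 12 only 2b was between 30% and 50%. Windows 9a and 10a were at the chromosome start, and 7a was at 12.7%. The band of 30% to 50% was chosen after the values were seen. How many other windows, and how many of their long peaks, lie in that band is not given here. Over the 9 windows, embryo peaks had a median of 341.5 bp and endosperm peaks one of 340 bp. Over the 12 the medians were 263 bp for embryo and 224 bp for endosperm, beside 272 bp and 211 bp in other windows. Since the 9 were set apart by their long embryo peaks, longer embryo peaks in them and shorter ones in the 12 are favoured by construction. Both kinds had nearly the same ratio, 1.78 in the 9 windows and 1.8 in the 12.

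The dense stretches differed in the same way. In 9 stretches, those of 1b, 1c, 3a, 4b, 4c, 5b and 6a, there was no long peak of either tissue. Their median lengths ran from 214 to 282 bp in embryo and from 202 to 316 bp in endosperm, and successive endosperm peaks began at a median distance of 698 to 1166 bp. They were thus series of short peaks set close together, covering 7.03% to 11.9% of the bases in embryo and 6.63% to 13.8% in endosperm. In the other 10 stretches, those of 1a, 2b, 3b, 4a, 7a, 9a, 9b, 10b and 10c, median lengths were 407 to 1237 bp in embryo and 308 to 697 bp in endosperm, and endosperm peaks began 1415 to 2607 bp apart. The first stretch of 1a, from 134600001 to 134800000, was the extreme, with 48 peaks in each tissue, of which 29 in embryo and 15 in endosperm were long. The stretches were picked for many endosperm peaks, which favours close endosperm starts, and the spacing in other windows is not given here. In 16 of the 19 stretches the median distance between successive starts was shorter in endosperm than in embryo. Endosperm peaks were not the more numerous for that, since only 5 of the 19 had at least as many endosperm as embryo peaks. The split was made by long embryo peaks and after the values were seen. It favours a difference in length by construction and is a description.

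Embryo covered 2.01 times as many bases as endosperm over the 21 windows, against 3.96 times in other windows. The lowest ratio was in 9a, where peaks covered 10.1% of the window in embryo and 8.38% in endosperm (ratio 1.20), and the highest was 2.56 in 2a. Only 5 of the 21 windows had a covered length ratio of at most 2.0, a limit that the choice of windows set for peak number but not for length.

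Scores within each list were also compared. The median diffScore of embryo peaks was 91.5 in the 21 windows and 87.7 in other windows. For endosperm peaks it was 77.9 and 67.0, and it was above 67.0 in 20 of the 21, with 2a at 66.5. How many single other windows were above 67.0 is not given here. A diffScore of at least 100 was reached by 44.1% of the embryo peaks in the 21 windows, against 41.3% in other windows, and by 33.3% of the endosperm peaks, against 18.0%. The ratio of peak numbers therefore depended less on the minimum score inside the windows than outside. With a minimum of 100 in both lists it was 2.37 (1882 embryo and 795 endosperm peaks, 2.18 to 2.57), against 7.12 in other windows. At 200 it was 2.57 (633 and 246, 2.22 to 2.98), against 12.3. How the score scales in each library was not tested.

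**Figure D5:**
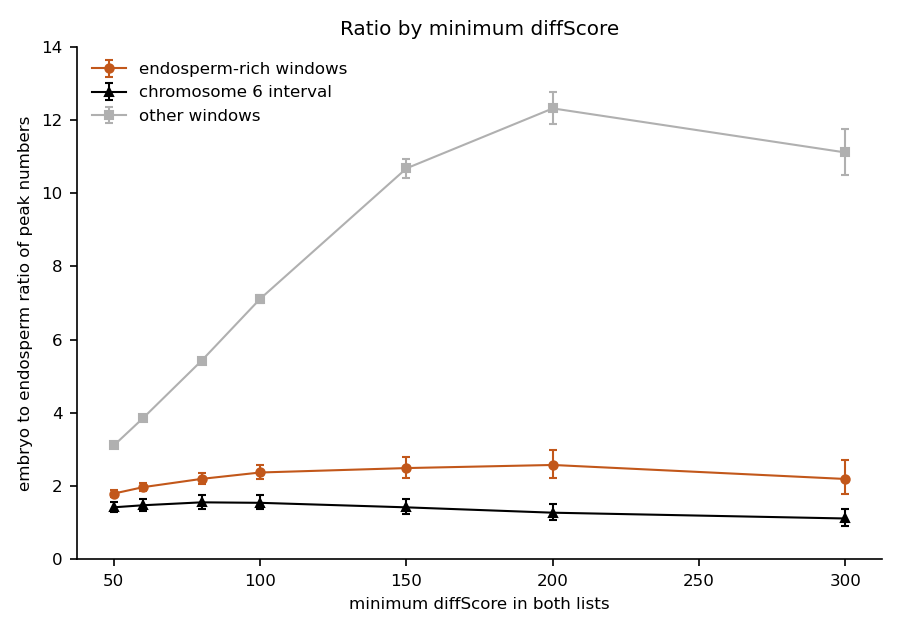
Embryo to endosperm ratio of peak numbers (y axis) against the minimum diffScore asked of both lists (x axis) for the 21 endosperm-rich windows, the 3 windows of the chromosome 6 interval and the 2035 other windows; bars are 95% Wilson intervals for counting error. The ratio stays between 1.79 and 2.57 in the endosperm-rich windows, while in other windows it runs from 3.11 to 12.3.

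Single windows differed in this respect. At a minimum of 100 the ratio was 1.34 in 4c (125 embryo and 93 endosperm peaks), 1.8 in 5b (83 and 46) and 1.83 in 9a (108 and 59). In 1b, 1c and 3a it was also at most 2.0, which makes 6 windows in all. It was highest in 5c, with 78 embryo and 13 endosperm peaks (6.0), in 2a (68 and 14, ratio 4.86) and in 5a (74 and 18, ratio 4.11). These are 3 of the 5 windows without a dense bin. In 8a and 10a, the others without one, it was 3.58 and 3.10. The counts behind these ratios are small.

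The interval of chromosome 6 that was left out also meets the limits set for the windows. Its 3 windows held 967 embryo and 683 endosperm peaks, a ratio of 1.42 (1.28 to 1.56), below the 1.79 of the 21 windows. There 22 of 30 bins were dense, so the endosperm peaks filled the windows rather than stretches of them. Endosperm peaks were longer there, with a median of 495 bp against 411 bp in embryo, and 109 of the 683 but only 1 of the 967 embryo peaks were at least 1000 bp long. In the 21 windows long peaks were 110 of 2384 in endosperm and 221 of 4271 in embryo, so long embryo peaks set the 9 windows named above apart from the interval too. The only endosperm-rich window on the same chromosome was 6a, in which no peak of either tissue reached 1000 bp.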

How the data were processed

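Embryo and endosperm of B73 maize were each profiled by MeDIP-seq in 1 library. After cleaning with fastx, reads were aligned by the authors using Bowtie2 2.0.5, and MACS was then run per tissue. The genome build and the control given to MACS are not given in the sources used here. The 2 deposited lists hold chromosome, start, end and, as a score, the diffScore of each peak, which is at least 50. They hold 351748 embryo and 114577 endosperm peaks on chromosomes 1 to 10 and no read numbers, and depth per peak was not analysed here. The members and alternatives were chosen with earlier results of these data known.

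Peaks were counted in windows of 1 Mb and bins of 100 kb, and peaks sharing 1 bp were called overlapping. Intervals are 95% Wilson intervals. The expected number of windows was the sum of binomial probabilities. Peak numbers, ratio, dense bins and strongest endosperm peak were described for the 6 windows with the lowest ratio and the 6 with most endosperm peaks. Other single values were chosen after the values were seen. So were the minimum of 20 endosperm peaks for a dense bin and the split at 10 long embryo peaks. No gene could be named, since no window lies in the part of the supplementary gene tables at hand. Python 3.11.15, numpy 2.4.6, pandas 2.3.3, scipy 1.17.1 and statsmodels 0.14.6 were used. The code was tested on 200 simulated windows for embryo and endosperm and against bedtools 2.31.1, and 8 of 8 checks gave the known number.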

Additional observations from a re-analysis of the deposited data

How the results depend on the processing

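No paired analysis was possible because each tissue was represented by 1 library. The number of windows, 21, depended on the limits. It was 9 at a ratio of at most 1.8 and 37 at a ratio of at most 2.2. With a minimum diffScore of 60 in both lists it was 9, all among the 21. In windows of 500 kb with at least 50 peaks it was 76, of which 25 touched a window of the 21. Shorter windows hold fewer peaks, so counting error weighs more in them. The number was 21 by peak midpoint, 22 with at least 50 peaks and 21 with at least 150. With windows counted from 500 kb it was 17, of which 10 touched a window of the 21. With peaks within 500 bp joined it was 21, of which 16 were the same, and by summed peak length it was 16, of which 5 were the same. Window borders and the measure therefore decide in part which windows are named.

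The ratio of peak numbers over the 21 windows, 1.79, was 1.97 and 2.37 at a minimum diffScore of 60 and 100, 2.02 without the bin of each window with most endosperm peaks and 2.33 without all bins of at least 20 endosperm peaks, a setting added after seeing the data. The covered length ratio, 2.01, was under the same settings 2.18, 2.64, 2.26 and 2.57, and 1.91 without peaks of at least 1000 bp. Of the endosperm peaks, 78.6% overlapped an embryo peak, and this share was 83.0% when a gap of 200 bp was allowed, 95.1% at a minimum diffScore of 100 in endosperm alone and 75.6% without the dense bins. The share of endosperm peaks in the fullest bins, 25.5%, was 35.3% at a minimum diffScore of 100. The ratio of median peak lengths, 1.13, was 1.10 with joined peaks. Taking out bins with many endosperm peaks raises the ratio of peak numbers by construction, and the causes of the other shifts were not tested.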
